A study of Homo sapiens with 6 samples.

Results

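The 46 genes described here are interferon-stimulated effector genes, chosen by symbol from a list of antiviral and interferon-induced proteins, and all 46 were found among the 18678 genes of the expression table. Polyadenylated RNA was sequenced with a stranded kit from an established human tongue carcinoma line of squamous origin, Cal27. The other group, Cal27-shGRK2, has a short hairpin RNA that targets GRK2, the kinase that marks active G protein-coupled receptors for desensitization. Cells of both groups grew in medium with serum and were harvested before confluence, and the labels do not say whether Cal27 carried a control vector or how many hairpins or clones were used. The labels name 3 libraries per group, but Cal27-shGRK2 replicates 0 and 1 have the same value in each of the 18678 genes and were counted as 1 sample, so 3 Cal27 libraries are compared with 2 Cal27-shGRK2 libraries. Separate cultures are not mentioned for any group, and p-values therefore reflect the spread among these samples alone, possibly a technical one.

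Interferons are secreted signals of infection that bind receptors on the cell surface and, through the kinases JAK1 and TYK2, activate transcription factors of the STAT family. With IRF9 these form the factor ISGF3, which binds a promoter element called the ISRE (interferon-stimulated response element) and switches on many genes. The products of these genes block virus entry, translation, replication or release, and carcinoma cells often express part of the set without any virus.

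Values are FPKM, fragment counts scaled to transcript length and library size, so levels can be compared between genes, and sequencing depth cannot be recovered from them. The 46 genes ranged in Cal27 from a mean of 3.21 FPKM for GBP2 to 513 FPKM for IFITM3, and all passed the filter of a mean of at least 1 FPKM. GRK2 itself (listed as ADRBK1) had 55.3, 59.4 and 55.8 FPKM in the Cal27 libraries and 17.3 and 16.6 FPKM in the Cal27-shGRK2 libraries, with no overlap (log2 fold change -1.69 ± 0.06, SE, limma adjusted p = 3.8e-11, exact two-sided permutation p = 0.1, the smallest that 10 splits allow). Of the squamous markers KRT5, KRT6A, KRT17, TP63, EGFR and CDH1, all 6 were present, summing to 2790 to 3130 FPKM in Cal27, against 1020 to 1070 FPKM in Cal27-shGRK2, with 4 lower and 2 higher. Of 7 blood cell markers 4 were in the table, with PTPRC, CD3E and LYZ not among its genes, and those 4 summed to 59.2 to 62.2 and 71.2 to 75.8 FPKM, mostly HLA-DRA. The 4 of 7 fibroblast markers in the table summed to 4.35 to 4.71 and 4.38 to 4.46 FPKM. Only CDH5 of 4 endothelial markers was in the table, at 3.50 to 3.97 and 6.80 to 7.01 FPKM. The part of these marker differences in the results was not tested.

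Most of the 46 genes carry the letters of the ISRE next to their start. RefSeq promoters (GRCh38.p14, from 250 bases before to 50 after each annotated start) were available for 38 of the 46, and an ISRE-like motif, GAAA, then any 2 bases, then GAAA again, was searched on both strands. It was found in 33 of 53 member promoters (62.3%), against 1255 of all 35116 promoters of the same length (3.57%). By gene, 28 of 38 members (73.7%) had a match at 1 or more of their starts, against 4.38% of all 27305 genes. The letters TTCNNNGAA, which resemble the element through which interferon gamma acts, were in 13 of 53 member promoters (24.5%), against 7.66% of all, and 6 of these 14 matches overlapped an ISRE-like match. Such matches are descriptions of sequence, not shown sites of binding, and which annotated start Cal27 cells use is not known from gene-level values.

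The following stretches are the 180 bases just before the first listed RefSeq start of 7 members, written 5′ to 3′ on the gene's own strand, with ISRE-like matches (either strand) in capitals. IFI6, IFI27 and IFI44L are shown because they had the 3 largest falls, ISG15 as the founding ubiquitin-like effector, DDX60 and DDX60L as neighbours that moved in opposite directions, and LGALS3BP as a highly expressed member whose groups overlapped.
IFI6 (chr1:27672193-27672372, minus strand): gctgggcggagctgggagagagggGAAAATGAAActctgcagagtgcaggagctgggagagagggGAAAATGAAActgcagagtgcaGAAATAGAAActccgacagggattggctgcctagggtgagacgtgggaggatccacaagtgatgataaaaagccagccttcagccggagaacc
IFI27 (chr14:94110556-94110735, plus strand): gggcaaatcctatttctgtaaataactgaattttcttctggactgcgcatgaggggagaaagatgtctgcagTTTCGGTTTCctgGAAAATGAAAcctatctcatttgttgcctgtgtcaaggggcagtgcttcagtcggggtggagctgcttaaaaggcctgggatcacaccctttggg
IFI44L (chr1:78620268-78620447, plus strand): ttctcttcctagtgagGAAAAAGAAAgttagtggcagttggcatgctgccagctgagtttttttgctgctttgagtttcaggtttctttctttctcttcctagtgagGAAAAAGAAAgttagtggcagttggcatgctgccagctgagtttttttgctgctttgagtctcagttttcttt
ISG15 (chr1:1013317-1013496, plus strand): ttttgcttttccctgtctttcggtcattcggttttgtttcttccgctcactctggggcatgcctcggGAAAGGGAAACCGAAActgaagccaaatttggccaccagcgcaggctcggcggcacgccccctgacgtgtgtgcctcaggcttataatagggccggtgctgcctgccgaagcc
DDX60 (chr4:168318753-168318932, minus strand): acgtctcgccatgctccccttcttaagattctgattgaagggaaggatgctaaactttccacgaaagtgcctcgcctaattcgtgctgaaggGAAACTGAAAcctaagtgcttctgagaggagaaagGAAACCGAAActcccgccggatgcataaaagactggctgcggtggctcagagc
DDX60L (chr4:168480493-168480672, minus strand): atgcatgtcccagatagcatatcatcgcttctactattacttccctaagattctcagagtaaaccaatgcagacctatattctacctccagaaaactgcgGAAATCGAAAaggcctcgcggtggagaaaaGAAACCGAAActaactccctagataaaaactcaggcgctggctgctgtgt
LGALS3BP (chr17:78979924-78980103, minus strand): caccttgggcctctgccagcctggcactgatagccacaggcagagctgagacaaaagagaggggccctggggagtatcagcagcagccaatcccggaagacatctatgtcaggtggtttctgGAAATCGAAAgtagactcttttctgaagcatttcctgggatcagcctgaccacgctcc

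IFI6 holds 3 matches in this stretch, with leftmost bases at -156, -115 and -93 from the start. The first and the second lie in copies of a repeat, identical over 29 bases. In IFI44L an exact repeat of 76 bases places the same match at -164 and -73. The matches of ISG15, at -113 and -107, overlap each other, and those of DDX60 lie at -88 and -53, close to the -80 and -50 of DDX60L.

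Of the 46 effector genes 35 passed the test in either direction, against 29.6% of all genes tested. In Cal27-shGRK2 cells 32 of the 46 effector genes were lower, 3 were higher and 11 did not pass (limma on log2(FPKM + 1), Benjamini-Hochberg adjusted p under 0.05 over the 13377 genes tested). Among all genes tested 14.6% were lower and 15.0% higher by the same rule. The median log2 fold change of the 46 was -0.61, beside -0.01 over all genes tested. Of the 46, 11 had a log2 fold change of -1 or less, and all of these passed the test. Among all genes tested, 1.31% both passed and had a fall of that size. In 37 members both Cal27-shGRK2 libraries lay under all 3 Cal27 libraries, in 4 both lay above, and in 5 the groups overlapped, where 27.4% and 25.9% of all genes tested were separated downward and upward. When all libraries were brought to 1 common total, 31 members were lower and 4 higher, while the split over all genes went from 1949 lower and 2008 higher to 1575 and 2927 (of 14483 that passed the filter on that scale).

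**Figure D1:**
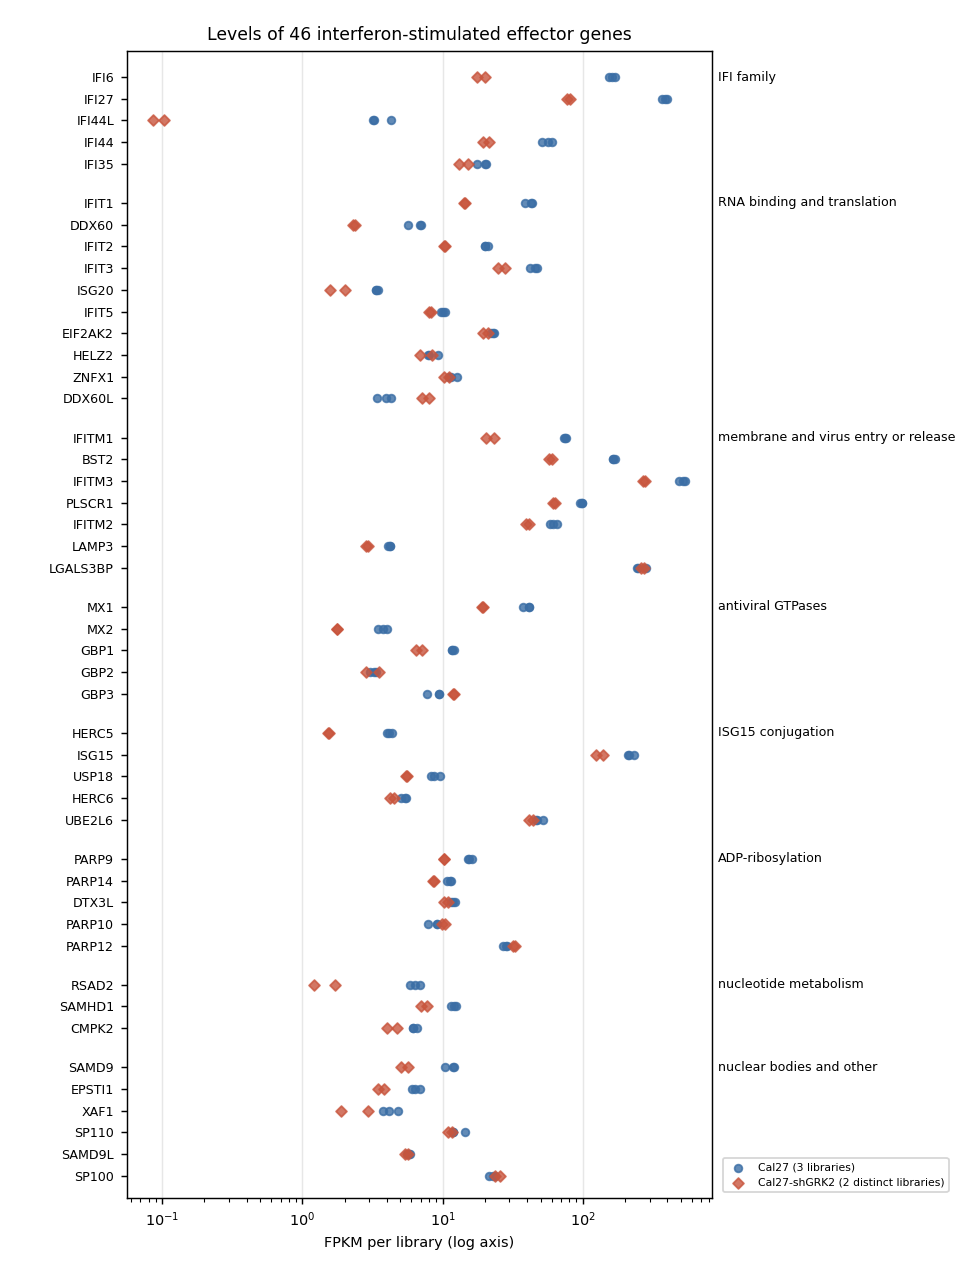
FPKM (log axis) of the 46 effector genes in each library, grouped by what their products do or, for the IFI genes, by symbol. Circles mark the 3 Cal27 libraries and diamonds the 2 distinct Cal27-shGRK2 libraries. In 37 genes both diamonds lie to the left of all circles, IFI44L having the widest gap, and in 4 genes, among them DDX60L and GBP3, they lie to the right.

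Summed over the 46 genes, the level was 2434, 2550 and 2486 FPKM in the Cal27 libraries and 1322 and 1350 FPKM in the Cal27-shGRK2 libraries. Both Cal27-shGRK2 libraries were thus far below all Cal27 libraries, and the mean was 1.86-fold lower. IFI6, IFI27 and IFITM3 alone made up 59.7% of this difference (689 of 1154 FPKM). The 6 most abundant members, IFITM3, IFI27, LGALS3BP, ISG15, BST2 and IFI6, held 67.5% to 69.1% of the sum in Cal27 and 61.6% and 62.5% in Cal27-shGRK2. In bulk RNA such a fall cannot tell fewer expressing cells from less RNA per cell.

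The IFI genes, grouped here by their symbol and first named for their induction alone, fell in 5 of 5 (median log2 fold change -2.05). IFI6 (ENSG00000126709.14, chromosome 1, 27666061 to 27672218, minus strand, GENCODE version 29, hg38), a membrane protein that limits cell death and flavivirus replication, had 170, 162 and 154 FPKM in the Cal27 libraries and 17.7 and 20.0 FPKM in the Cal27-shGRK2 libraries. Its groups were far apart, with an 8.59-fold lower mean and the lowest log2 fold change of all members (-3.04 ± 0.07, SE, n = 3 and 2, limma adjusted p = 1.7e-13). IFI27 (chromosome 14, 94104836 to 94116698, plus strand), a related mitochondrial protein, had 369, 387 and 399 FPKM in Cal27, against 81.3 and 77.4 FPKM in Cal27-shGRK2. Both Cal27-shGRK2 libraries lay far under all Cal27 libraries, a 4.85-fold lower mean (log2 fold change -2.26 ± 0.06, adjusted p = 6.8e-13).

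IFI44L and IFI44, whose genes lie side by side on chromosome 1 with 3650 bases between them, both fell. IFI44L had 4.27, 3.27 and 3.19 FPKM in Cal27, against 0.104 and 0.0866 FPKM in Cal27-shGRK2, a 37.6-fold lower mean, the widest ratio of the 46. Both Cal27-shGRK2 values are far under 1 FPKM, so the size of this ratio is uncertain. The authors' deposited table gives IFI44L a log2 fold change of -4.90. On the log2(FPKM + 1) scale, which understates changes of low genes, the change of IFI44L was -2.05 ± 0.12 (limma adjusted p = 4e-09). It also had the largest spread of any member between Cal27 libraries, a coefficient of variation of 16.8%. IFI44 had 60.2, 51.4 and 56.5 FPKM in Cal27, against 19.4 and 21.5 FPKM in Cal27-shGRK2, with no overlap (log2 fold change -1.41). IFI35, a leucine-zipper protein that signals danger to immune cells, averaged 19.4 ± 1.61 FPKM in Cal27 (SD, n = 3) and 14.3 ± 1.48 FPKM in Cal27-shGRK2 (SD, n = 2; log2 fold change -0.42, limma adjusted p = 0.0015), a call lost without the single library that stands for Cal27-shGRK2 replicates 0 and 1 (adjusted p = 0.054).

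Of 10 members that bind RNA or act on translation, 6 fell, 1 rose and 3 did not pass (median -0.47). The IFIT proteins recognise viral RNA by its 5′ end or block initiation of translation, and all 4 were lower. IFIT1, which binds RNA lacking cap methylation, had 43.4, 38.9 and 42.4 FPKM in Cal27, against 14.2 and 14.4 FPKM in Cal27-shGRK2. The Cal27-shGRK2 libraries were nearly equal, at 34.4% of the Cal27 mean (log2 fold change -1.48 ± 0.07, limma adjusted p = 3.5e-10). Its neighbours on chromosome 10 also fell, IFIT2 from 20.4 ± 0.606 to 10.3 ± 0.112 FPKM (-0.92), IFIT3 from 45.1 ± 2.52 to 26.2 ± 2.11 FPKM (-0.76) and IFIT5 from 10.1 ± 0.338 to 8.12 ± 0.181 FPKM (-0.28). The call of IFIT5 was lost without the single library that stands for Cal27-shGRK2 replicates 0 and 1 (adjusted p = 0.082).

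DDX60 and DDX60L are sister helicase genes on chromosome 4, 37927 bases apart and on the same strand, and they changed in opposite directions. DDX60, reported to aid RNA sensing, had 6.85, 5.65 and 7.02 FPKM in Cal27, against 2.30 and 2.38 FPKM in Cal27-shGRK2 (log2 fold change -1.16 ± 0.10, limma adjusted p = 2.8e-07). DDX60L had 3.43, 3.97 and 4.28 FPKM in Cal27, against 7.11 and 8.01 FPKM in Cal27-shGRK2 (0.81 ± 0.10, adjusted p = 1.1e-05), the largest rise of the 46. Thus DDX60 was the higher of the pair in every Cal27 library and DDX60L in every Cal27-shGRK2 library. Only 0.6% of the 50-base words in DDX60 transcripts occur in transcripts of other genes, DDX60L among them, and both promoters printed above hold 2 ISRE-like matches. The authors' deposited table gives DDX60L a log2 fold change of 1.02 with q = 0.097, not marked as significant.

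Among the other RNA-acting members, ISG20, an RNA exonuclease, went from 3.38 ± 0.0666 to 1.80 ± 0.320 FPKM (log2 fold change -0.65). EIF2AK2, the kinase PKR that halts translation on double-stranded RNA, had 23.1, 22.2 and 23.0 FPKM in Cal27, against 19.4 and 21.2 FPKM in Cal27-shGRK2, and did not pass (log2 fold change -0.16, 95% interval -0.30 to -0.01, limma adjusted p = 0.094), except under quantile normalization (0.043) and with a further library derived from the authors' mean (0.018). The helicase ZNFX1, a sensor of double-stranded RNA on mitochondria, had 11.2, 12.7 and 11.4 against 10.3 and 11.1 FPKM (interval -0.29 to 0.05). For HELZ2, a helicase and transcriptional coactivator, the values were 8.05, 9.32 and 7.91 against 6.88 and 8.37 FPKM, which overlapped (interval -0.33 to 0.07). The lower ends of these 3 intervals reach past the change seen for IFIT5 (-0.28).

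**Figure D2:**
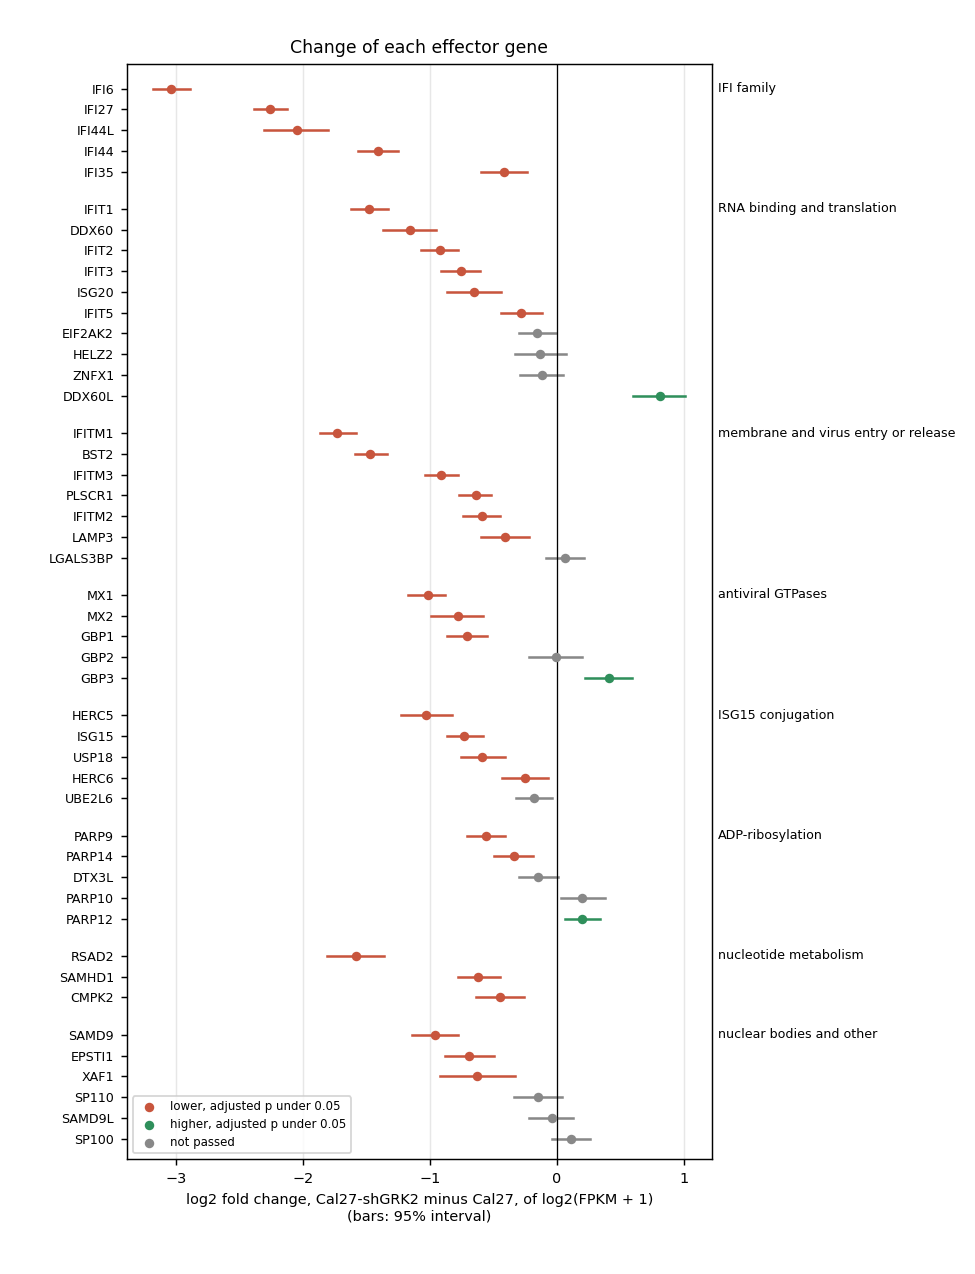
Log2 fold change (Cal27-shGRK2 minus Cal27, of log2(FPKM + 1)) of the 46 effector genes with 95% intervals from limma, sorted within function groups and coloured by the call at an adjusted p of 0.05. Changes run from -3.04 for IFI6 to 0.81 for DDX60L, and the intervals of the 11 genes that did not pass all lie between -0.34 and 0.38.

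Proteins of membranes and of virus entry or release, grouped here with the secreted LGALS3BP, included some of the most abundant RNAs of the set. In this mixed group 6 of 7 fell (median -0.64). The IFITM proteins stiffen endosomal and plasma membranes against virus fusion. IFITM1 had 74.2, 75.6 and 73.4 FPKM in Cal27, the tightest values of any member (coefficient of variation 1.48%), and 23.3 and 20.4 FPKM in Cal27-shGRK2. Its log2 fold change was -1.73 ± 0.07 (limma adjusted p = 5.3e-11). IFITM3 had 485, 537 and 517 FPKM in Cal27, against 268 and 276 FPKM in Cal27-shGRK2 (log2 fold change -0.91 ± 0.06, adjusted p = 2.8e-08) and had the highest mean of all members in both groups. IFITM2 went from 61.6 ± 4.03 to 40.4 ± 1.30 FPKM (-0.59). These genes lie within one cluster on chromosome 11 and share sequence, as 32.0% of the 50-base words of IFITM1, 34.1% of IFITM2 and 17.4% of IFITM3 also occur in transcripts of other genes, and annotated exons of IFITM2 reach over IFITM1. An annotated gene on the other strand also covers 21.3% of the IFITM3 exonic bases. The separate values of the IFITM genes are therefore uncertain.

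BST2, or tetherin, which holds budding virus at the cell surface, had 169, 163 and 165 FPKM in Cal27, against 60.7 and 57.7 FPKM in Cal27-shGRK2. The 2.80-fold lower mean was well beyond the spread in either group (log2 fold change -1.47 ± 0.06, limma adjusted p = 8e-11). PLSCR1, a phospholipid scramblase that restricts virus entry, had 98.2, 96.1 and 99.3 against 61.3 and 63.2 FPKM (-0.64, adjusted p = 6.6e-07). LAMP3, a lysosomal membrane protein, went from 4.17 ± 0.0998 to 2.88 ± 0.0672 FPKM (-0.41). LGALS3BP, a secreted glycoprotein that binds galectins, stood apart at 242, 283 and 249 FPKM in Cal27, against 275 and 261 FPKM in Cal27-shGRK2. Its groups overlapped and the log2 fold change was 0.06 (95% interval -0.09 to 0.21, limma adjusted p = 0.59), and LGALS3BP was above IFITM3 in 1 of the 2 Cal27-shGRK2 libraries and below it in all Cal27 libraries.

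Of the 5 interferon-induced GTPases 3 fell, 1 rose and 1 did not pass (median -0.71). The MX proteins, dynamin-like GTPases that trap viral nucleoproteins or capsids, are encoded 10913 bases apart on chromosome 21, and both were lower. MX1 had 41.3, 41.6 and 37.6 FPKM in Cal27, against 19.2 and 19.3 FPKM in Cal27-shGRK2 (log2 fold change -1.02 ± 0.07, limma adjusted p = 1.8e-08). MX2 had 4.03, 3.78 and 3.48 FPKM against 1.76 and 1.77 FPKM (-0.78 ± 0.10, adjusted p = 1.5e-05). The ratio of means was similar for the 2 genes, 2.09-fold and 2.13-fold lower, although MX2 was far less abundant.

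The guanylate-binding proteins GBP1, GBP2 and GBP3, GTPases that coat intracellular pathogens and respond strongly to interferon gamma, lie next to each other on chromosome 1 and did not move together. GBP1 had 12.0, 11.6 and 11.7 FPKM in Cal27, against 6.47 and 7.13 FPKM in Cal27-shGRK2 (log2 fold change -0.71 ± 0.08, limma adjusted p = 3.5e-06). GBP3 had 7.77, 9.42 and 9.36 FPKM in Cal27, against 12.1 and 11.9 FPKM in Cal27-shGRK2 (0.41 ± 0.09, adjusted p = 0.0021). GBP1 was thus above GBP3 in all Cal27 libraries and below it in both Cal27-shGRK2 libraries. GBP2 overlapped, at 3.02, 3.26 and 3.34 against 2.84 and 3.54 FPKM (-0.01, 95% interval -0.22 to 0.20). Part of their sequence is common, with 9.6%, 10.2% and 4.8% of the 50-base words of GBP1, GBP2 and GBP3 occurring in other genes, so reads may have been split between them.

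ISG15 is a ubiquitin-like protein that is attached to other proteins by its own enzymes. Of the 5 genes grouped here with this system, HERC6 among them, 4 fell (median -0.59). ISG15 had 209, 231 and 215 FPKM in Cal27, against 124 and 140 FPKM in Cal27-shGRK2, with no overlap (log2 fold change -0.73 ± 0.07, limma adjusted p = 9.1e-07). HERC5, the main ligase for ISG15, had 4.38, 4.02 and 4.14 against 1.52 and 1.55 FPKM, the largest fall of the 5 (-1.03 ± 0.09, adjusted p = 5.6e-07). USP18, which removes ISG15 and restrains the interferon receptor, had 8.66, 9.60 and 8.28 against 5.59 and 5.51 FPKM (-0.59, adjusted p = 6.4e-05), and 23.4% of its 50-base words occur in other genes, chiefly its copy USP41. UBE2L6, the conjugating enzyme, had 46.4, 51.8 and 47.5 against 41.2 and 44.2 FPKM and did not pass (-0.18, 95% interval -0.32 to -0.04, adjusted p = 0.056). It did pass in 5 alternatives, among them without Cal27 replicate 0 (0.040) and with median-of-ratios scaling (0.031).

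HERC6, next to HERC5 on chromosome 4, had 5.44, 5.49 and 5.09 FPKM in Cal27, against 4.20 and 4.47 FPKM in Cal27-shGRK2. The groups did not overlap, but its log2 fold change of -0.25 ± 0.08, against -1.03 for HERC5, only just passed (limma adjusted p = 0.038). The call was lost without Cal27 replicate 0 or 1 (0.083 and 0.076), without the single library that stands for Cal27-shGRK2 replicates 0 and 1 (0.20) or replicate 2 (0.087), with a common total (0.061) and with the replicate block (0.085).

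The enzymes of ADP-ribosylation, which attach ADP-ribose to proteins and in part to viral RNA or proteins, had the group median nearest 0, with 2 of 5 lower, 1 higher and 2 not passing (median -0.15). PARP9 and its partner, the ubiquitin ligase DTX3L, are read in opposite directions from starts 339 bases apart on chromosome 3. PARP9 had 16.1, 15.1 and 15.4 FPKM in Cal27, against 10.2 FPKM in both Cal27-shGRK2 libraries (log2 fold change -0.56 ± 0.07, limma adjusted p = 1.9e-05). DTX3L had 11.8, 12.2 and 11.5 against 10.2 and 10.9 FPKM and did not pass (-0.15, 95% interval -0.30 to 0.01). PARP14, a mono-ADP-ribosyltransferase of the same chromosome region, had 11.3, 10.7 and 11.4 against 8.63 and 8.52 FPKM (-0.34, adjusted p = 0.0023).

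PARP12, which acts on the Golgi and restricts several RNA viruses, had 27.0, 28.4 and 28.8 FPKM in Cal27, against 31.9 and 32.8 FPKM in Cal27-shGRK2 (log2 fold change 0.20 ± 0.06, limma adjusted p = 0.027). Its libraries did not overlap, but the call was lost without Cal27 replicate 0 (0.093), without the single library that stands for Cal27-shGRK2 replicates 0 and 1 (0.089) or replicate 2 (0.16), and in limma without trend (0.057). PARP10 had 7.88, 9.17 and 9.09 against 9.93 and 10.4 FPKM, and did not pass (log2 fold change 0.20, 95% interval 0.03 to 0.38, adjusted p = 0.081). It passed in 4 alternatives, with median-of-ratios scaling (0.049), a common total (0.025), the replicate block (0.046) and the library derived from the authors' mean (0.026).

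All 3 genes of nucleotide metabolism fell (median -0.62). RSAD2, or viperin, makes a chain-terminating nucleotide. It lies on the opposite strand to CMPK2, a mitochondrial nucleotide kinase, with starts 829 bases apart on chromosome 2, and the annotated genes overlap. RSAD2 had 6.85, 5.83 and 6.37 FPKM in Cal27, against 1.70 and 1.22 FPKM in Cal27-shGRK2, a 4.34-fold lower mean (log2 fold change -1.58 ± 0.10, limma adjusted p = 2.1e-08). CMPK2 had 6.56, 6.18 and 6.19 against 4.01 and 4.70 FPKM (-0.45 ± 0.09, adjusted p = 0.001). The 2 genes had nearly equal levels in Cal27, and RSAD2 was the lower of the pair in both Cal27-shGRK2 libraries. SAMHD1, which destroys the nucleotides that viruses need, had 12.4, 12.0 and 11.4 against 7.06 and 7.77 FPKM (-0.62, adjusted p = 1.8e-05).

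Of the last 6 members, nuclear body proteins and others, 3 fell and 3 did not pass (median -0.39). SAMD9 and SAMD9L, large restriction factors of poxvirus translation, lie 12031 bases apart on chromosome 7. SAMD9 had 12.0, 10.4 and 11.8 FPKM in Cal27, against 5.04 and 5.71 FPKM in Cal27-shGRK2 (log2 fold change -0.96 ± 0.09, limma adjusted p = 5.1e-07). SAMD9L overlapped, at 5.62, 5.75 and 5.90 against 5.43 and 5.67 FPKM (-0.04, 95% interval -0.22 to 0.13). The SAMD9 level was thus about that of SAMD9L in Cal27-shGRK2 and above it in every Cal27 library. SP100, a scaffold of PML nuclear bodies, had 23.7, 21.3 and 23.0 against 23.5 and 25.6 FPKM (0.11, interval -0.04 to 0.26). Its relative SP110 had 11.8, 14.4 and 11.9 against 10.9 and 11.7 FPKM (-0.15, interval -0.34 to 0.04). Annotated genes on the other strand cover 20.9% of the SP110 exonic bases, so its level is uncertain.

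EPSTI1, an interferon-induced gene first found in breast cancer cells grown with stroma, had 6.95, 6.38 and 6.01 FPKM in Cal27, against 3.44 and 3.80 FPKM in Cal27-shGRK2 (log2 fold change -0.69, limma adjusted p = 2.7e-05). XAF1, a proapoptotic partner of the inhibitor XIAP, had 4.14, 3.74 and 4.82 against 1.90 and 2.94 FPKM. Its Cal27-shGRK2 libraries differed by 43.0% of their mean, the widest gap of any member, and its call (-0.63 ± 0.13, adjusted p = 0.004) was lost without the library shared by replicates 0 and 1 (0.056). An annotated gene on the other strand covers 38.3% of the XAF1 exonic bases and the strand setting of the authors' counting is not given, so reads of the 2 genes may not be told apart.

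Across the 46 genes the size of the change was only loosely related to the level in Cal27. Pearson's r between log2(mean Cal27 FPKM + 1) and the log2 fold change was -0.38 and Spearman's rho -0.25 over 46 genes, against -0.13 and -0.12 over all 13377 genes tested. On the ratio of mean FPKM, which needs no pseudocount, rho was -0.16 over the 46. These are descriptions across genes of the same libraries, and the fold change contains the Cal27 values. Of the 10 members at 50 FPKM or more in Cal27, 9 fell and 0 rose, with a median of -1.16, and the tenth was LGALS3BP. Among 18 members of 10 to 50 FPKM 11 fell and 1 rose (median -0.38), and among 18 under 10 FPKM 12 fell and 2 rose (median -0.52). Over all genes tested, at any level, 14.6% were lower and 15.0% higher, and shares within these ranges were not counted. Low members such as IFI44L and RSAD2 were among those with the widest ratios, so large falls were not limited to abundant RNAs.

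**Figure D3:**
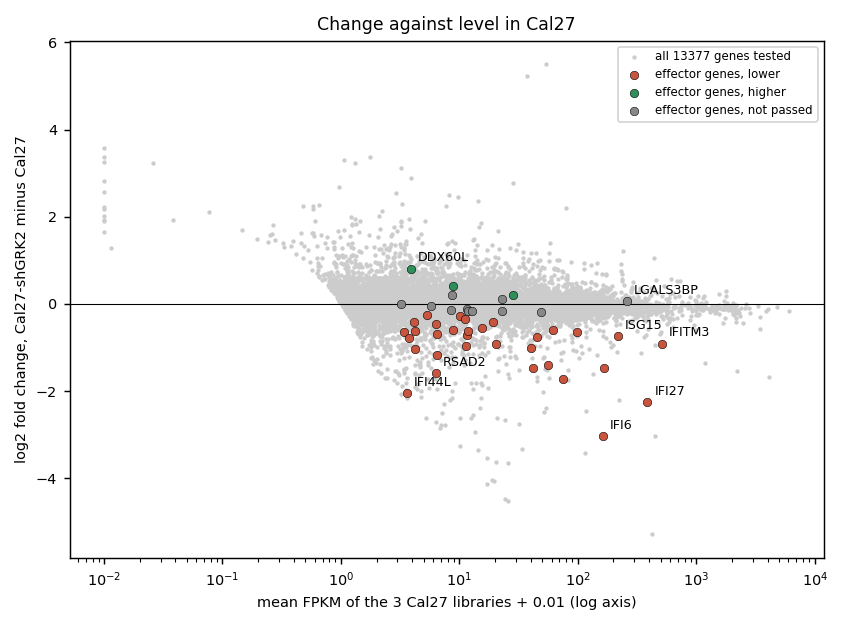
Log2 fold change against the mean FPKM of the 3 Cal27 libraries (log axis, 0.01 added) for all 13377 genes tested in grey and the 46 effector genes coloured by call. Effector genes with large falls occur from IFI44L at 3.57 FPKM to IFI27 at 385 FPKM, while LGALS3BP at 258 FPKM lies near 0.

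Members with more ISRE-like matches tended to have lower fold changes, with exceptions. The 13 genes with 2 or 3 ISRE-like matches at a start had a median log2 fold change of -1.16. Of these 12 fell, the other being DDX60L, beside 14.6% lower and 15.0% higher of all genes tested. Matches that overlap were counted separately. The 2 of BST2 (-130 and -124) and of ISG15 (-113 and -107) overlap each other, as do those of HERC5 at -125 and -119. Medians with overlapping matches counted once were not computed. The 15 genes with 1 match had a median of -0.64, with 10 lower and 2 higher. For the 10 genes with a promoter in the table but no match, the median was -0.22, with 5 lower and 0 higher, and no fall reached -1. All 11 members with a fall of -1 or more in size had a match, and so did all 3 that rose, DDX60L, GBP3 and PARP12. The set of 11 depends on the pseudocount of 1. At a pseudocount of 0.1 MX2, which has no promoter entry, also fell below -1 (-1.05). IFIT5, with 3 matches, changed by -0.28 only. The 8 members without an entry (GBP2, IFIT2, IFITM2, LAMP3, MX2, PARP10, USP18 and ZNFX1) had a median of -0.50.

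**Figure D4:**
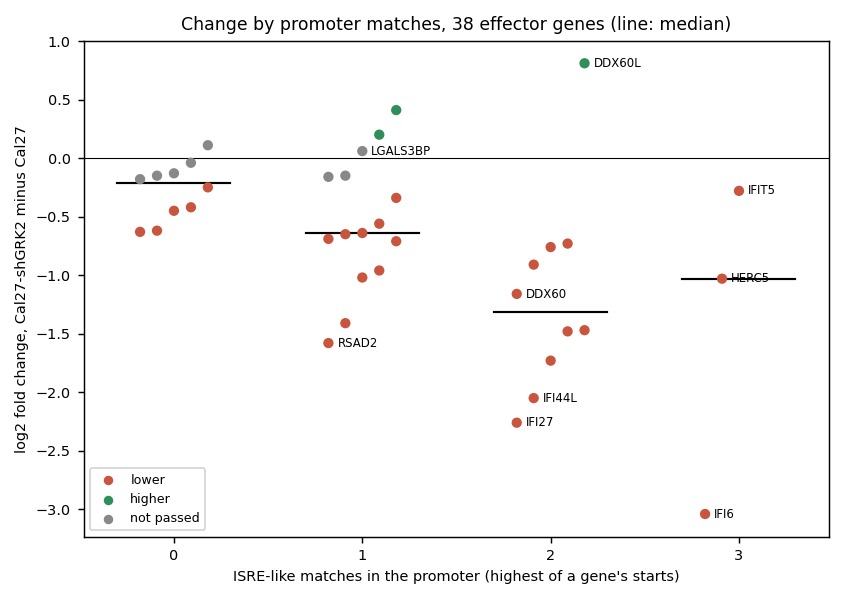
Log2 fold change of the 38 effector genes with a RefSeq promoter, by the number of ISRE-like matches (highest of a gene's starts). Overlapping matches were counted separately. Black lines mark the medians and colours the call. No gene without a match falls below -1, whereas genes with 2 or 3 matches range from -3.04 for IFI6 to 0.81 for DDX60L.

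The other listed genes of the interferon pathway differed by role. Group medians ran from -0.86 for the oligoadenylate synthetases and ADAR to 0.25 for the kinases. Of 43 listed genes of the pathway 34 were in the table and 33 were tested, of which 13 were lower, 4 higher and 16 did not pass (median -0.11, beside the 14.6% lower and 15.0% higher of all genes). Leaving out the single library of Cal27-shGRK2 replicates 0 and 1, the lower count was 9, and 8 were higher with a common total. Of 10 interferon genes listed, IFNE alone was in the table, at 0.668, 0.460 and 0.882 FPKM in Cal27, against 0.338 and 0.210 FPKM in Cal27-shGRK2, under the filter. Among receptors, IFNLR1, which binds lambda interferons, was higher (1.27, 1.13 and 1.02 against 2.11 and 2.58 FPKM, log2 fold change 0.64, limma adjusted p = 3.5e-04). The gamma receptor chain IFNGR1 was lower (-0.29, adjusted p = 0.0035), except without the shared library of replicates 0 and 1 (0.056). The alpha and beta receptor chain IFNAR2 did not pass (-0.22, adjusted p = 0.061), but did with the replicate block (0.044), under quantile normalization (0.039), without Cal27 replicate 1 (0.036) and with the derived library (0.032). Other annotated genes cover 44.2% of the IFNAR2 exonic bases on the same strand and 39.1% on the other, so its level is uncertain. JAK1 was higher (16.2, 17.6 and 16.4 against 21.3 and 22.1 FPKM, 0.36, adjusted p = 9.5e-04), while JAK2 (0.25, adjusted p = 0.094) and TYK2 (-0.10, adjusted p = 0.47) did not pass. JAK2 passed with a common total (0.046), in limma without trend (0.027) and with the derived library (0.043).

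Of 6 transcription factors of the pathway 2 fell and 4 did not pass. IRF9, the DNA-binding subunit of ISGF3, had 15.6, 12.1 and 11.0 FPKM in Cal27, against 2.49 and 2.60 FPKM in Cal27-shGRK2, with no overlap (log2 fold change -1.96 ± 0.12, limma adjusted p = 5.1e-07). Another annotated gene on the same strand covers 48.4% of the IRF9 exonic bases, so its level is uncertain. STAT2, named here after its values were seen, had 27.2, 26.6 and 30.4 against 30.1 and 30.0 FPKM (0.10, 95% interval -0.05 to 0.25). IRF7, a factor that amplifies interferon production, was lower (9.70, 10.3 and 9.33 against 5.92 and 5.89 FPKM, -0.64, adjusted p = 1.4e-05). IRF1, a factor induced by interferon gamma, had 38.8, 38.9 and 36.3 against 39.4 and 45.7 FPKM, without overlap, and did not pass (0.15, 95% interval 0.00 to 0.31, limma adjusted p = 0.12), except in 3 alternatives, among them without the shared Cal27-shGRK2 library (0.047). Exons of IRF1 also overlap annotated genes on the other strand.

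Of the inhibitors of JAK-STAT signalling, SOCS3 was higher (9.08, 10.9 and 9.43 against 15.4 and 16.6 FPKM, log2 fold change 0.66, limma adjusted p = 2e-05). SOCS1 was also higher (0.46, adjusted p = 0.0054), a call lost without Cal27-shGRK2 replicate 2 (0.11). The phosphatase PTPN1 was lower by a small margin (-0.20, adjusted p = 0.038), and this call was lost without Cal27 replicate 0 or 1 (0.061 and 0.079), without the shared Cal27-shGRK2 library (0.23), without replicate 2 (0.094), and in 4 other alternatives (0.061 to 0.090). Sensors of foreign nucleic acid and proteins that relay their signal had 5 of 7 lower. The largest falls were those of STING (listed as TMEM173, -0.64), RIG-I (listed as DDX58, -0.63) and DHX58 (-0.60). Of the oligoadenylate synthetases and ADAR, 4 of 5 were lower, with OASL at -2.38, OAS2 at -1.53 and OAS1 at -0.86.

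**Figure D5:**
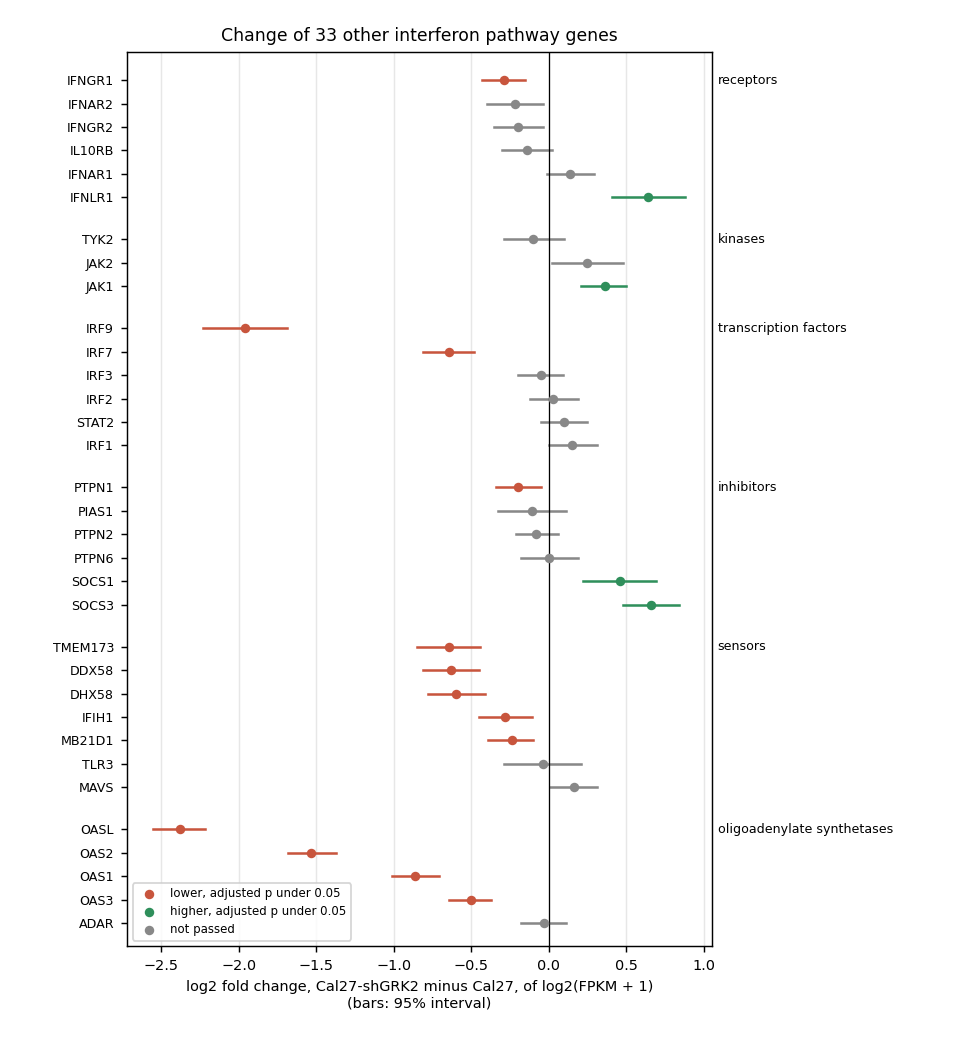
Log2 fold change (Cal27-shGRK2 minus Cal27) with 95% intervals from limma for the 33 tested genes of interferon signalling, by role. IRF9 at -1.96 and OASL at -2.38 lie far below 0, whereas the receptors and kinases lie between -0.29 and 0.64. The group named for the oligoadenylate synthetases also holds ADAR.

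The authors' deposited table marks 33 of the 46 effector genes as significant, 32 lower and 1 higher. The authors' deposited table marks 7.48% of the 13377 genes tested in limma as lower and 9.35% as higher, and 7.08% and 8.28% of all its 18678 genes. All 32 marked lower were also lower in limma. The 2 members called in limma and not marked there are DDX60L and PARP12. Its value for the Cal27-shGRK2 condition is not the mean of the deposited columns, matching the 3 columns' mean within a relative tolerance of 1e-04 in 44 of 13307 genes at 1 FPKM or more, whereas the Cal27 value did so in 13339 of 13339. If that value is the mean of 3 libraries, the library missing from the columns would have had 18.6 FPKM of IFI6, 85.9 of IFI27, 0.169 of IFI44L, 8.60 of DDX60L and 2.36 of IRF9. In all 37 members whose Cal27-shGRK2 libraries lay under Cal27 the derived value did too. How often this holds over all genes was not counted, so the count shows nothing particular to the members. Over the genes that passed the filter, the derived library correlated with the 2 Cal27-shGRK2 libraries at r = 0.9915 to 0.9923. Its correlation with the Cal27 libraries was 0.9706 to 0.9761, and Cal27 libraries correlated with each other at 0.9893 to 0.9933. With the derived library added, 34 members were lower and 4 higher, beside 17.0% and 18.7% of the 13383 genes tested in that fit.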

How the data were processed

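The submitters' processing notes name hg38 and the tools TopHat2 2.1.0, Bowtie2 2.2.6 and Cuffdiff 2.2.1, without roles. Annotation and strand setting are not given in the sources used here. Per the file headers, the authors' FPKM are listed by library and by condition, next to their own log2 fold change, p-values, q-values and a score (the test statistic, not used). In the deposited FPKM columns 0.0001 stands for 0. Depth is unknown, so no counting interval is given.

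The filter was a 5-library mean of 1 FPKM or more, which 13377 genes passed. Differences in log2(FPKM + 1) were fitted in limma 3.58.1 (R 4.3.3, trend and robust), two-sided, p-values were adjusted over all these genes by Benjamini-Hochberg, and the threshold was 0.05. The script was tested on simulated data. The members, gene lists and the rule for printed genes (up to 4 per function group by size of change, and each that rose or did not pass; up to 3 pathway genes per role and each that rose) were chosen with earlier results of these data known. A few genes of the pathway and marker lists are not reported here and enter no count of those lists. Positions, exon overlaps and shared 50-base words come from GENCODE version 29, in which all 46 members were found, and promoters from RefSeq (GRCh38.p14). Alternatives were a pseudocount of 0.1, no filter, a mean of at least 5 FPKM, 3 scalings, limma without trend, a replicate block and leaving out each library, and, chosen after seeing the data, an additional Cal27-shGRK2 library derived as 3 times the authors' condition value minus the 2 distinct columns.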

Additional observations from a re-analysis of the deposited data

How the results depend on the processing

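Of the 32 members called lower, 28 kept the call in every one of the 14 alternatives that tested them, as did 2 of the 3 called higher. The members that lost it are IFI35, IFIT5, HERC6, XAF1 and PARP12, with values given beside each. Leaving out each library in turn gave 28 to 32 members lower, 2 to 3 higher and a median log2 fold change from -0.62 to -0.56, and the median was -0.66 at a pseudocount of 0.1. Over all genes these fits gave 1088 to 1843 lower and 1218 to 2205 higher, and for the pathway list 9 to 13 lower. Pathway genes higher numbered 2 with a mean of at least 5 FPKM, where fewer genes were tested, 8 with a common total and 7 with the derived library; the cause of the last pair was not tested. GBP2 changed sign with a common total (0.04), and when single libraries were left out (-0.13 to 0.11, above 0 without Cal27 replicate 2, at 0.01, and without the shared Cal27-shGRK2 library), and SAMD9L with a common total (0.0047), none passing. The replicate block, with the shared library numbered 0, gave 31 members lower and 4 higher, and 1809 lower and 2151 higher over all genes. The numbers share no stated origin, and the difference of replicates 0 and 2 in one group correlated with that in the other at r = 0.061 over 13377 genes.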
